A study of Mus musculus with 16 samples.

Results

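Broad domains of histone H3 trimethylated at lysine 27 (H3K27me3) that also held the methyltransferase EZH2 were examined in untreated mouse macrophages. The 1317 domains were chosen by 2 deposited peak lists: each is an H3K27me3 peak at least 5000 bp long on chromosomes 1 to 19 or X that overlaps an untreated EZH2 peak by 1 bp or more. They were 1317 of 3880 H3K27me3 peaks of that length and of 88037 H3K27me3 peaks in all. The remaining 2563 broad peaks, which overlapped no untreated EZH2 peak, served as the comparison. Because H3K27me3 length and untreated EZH2 peaks selected the domains, these measures are given as a description with no test.

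EZH2 is the catalytic subunit of Polycomb repressive complex 2, which places methyl groups on lysine 27 of histone H3. The same complex binds the mark it makes, and it is known to gather at CG-rich promoters of genes that are kept silent in a given cell. In differentiated cells the longest H3K27me3 domains typically lie over genes for developmental regulators of other lineages, such as the Hox clusters. Acetylation of the same lysine (H3K27ac) marks active promoters and enhancers and cannot be carried by a lysine that is methylated.

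All cells were bone marrow macrophages of adult C57BL/6 mice, grown for 5 days with medium containing the growth factor M-CSF. Chromatin immunoprecipitation followed by sequencing gave 9 peak lists, each from a single library against input. Wild type cells gave the lists of EZH2, p53, H3K27ac and H3K27me3 without treatment, and of EZH2 after priming with lipopolysaccharide (LPS) and treatment with nigericin, a potassium ionophore that sets off the NLRP3 inflammasome. SIRT1, a deacetylase, was profiled without treatment in Ezh2 knock out cells, p53 knock out cells and a wild type control for each. How the knockouts were made and how many mice were used is not given in the sources used here, and the untreated EZH2 and H3K27me3 libraries have separate inputs. With 1 library a group there is no replicate check of any difference, and the 95% intervals below cover counting error only. They treat each domain, peak or promoter as independent, though 287 domains lie within 10 kb of another, and may be too narrow.

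Peaks at marker genes were checked against the labelled cell type. Of 20 genes for macrophage markers and factors, 19 had an H3K27ac peak within 1 kb of a start (or of a gene end where no start is listed) and none lay in an H3K27me3 peak by the same points. No start of 6 T cell, 6 neutrophil or 5 erythroid marker genes had such an H3K27ac peak, and 1 of 5 B cell and 1 of 6 stroma marker genes did. The lists ranged from 4878 peaks (p53) to 88037 (H3K27me3). All H3K27me3 and H3K27ac peaks had a false discovery rate q of 0.05 or less, but only 1731 of 9581 untreated EZH2 peaks and 756 of 5054 nigericin EZH2 peaks did. The weakest EZH2 peaks rested on 7 fragments at the summit, a number recovered from their fold and p-value.

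Promoters show the sequence that these domains cover. A promoter here is the 300 bases from 250 before to 50 after a transcription start in the RefSeq table for GRCm38, and 829 promoters of 716 protein-coding genes started inside the domains. CG dinucleotides, in capitals below, are the letters that Polycomb recruitment is known to follow. The 7 promoters were chosen after their values were seen and are written 5′ to 3′ on the gene's own strand. Olig2 at chr16:91225300-91225599 (plus strand) and Foxd3 at chr4:99656049-99656348 (plus strand), a basic helix-loop-helix and a forkhead factor of neural and neural crest cells, lay in domains with EZH2 in both treatments.
Olig2: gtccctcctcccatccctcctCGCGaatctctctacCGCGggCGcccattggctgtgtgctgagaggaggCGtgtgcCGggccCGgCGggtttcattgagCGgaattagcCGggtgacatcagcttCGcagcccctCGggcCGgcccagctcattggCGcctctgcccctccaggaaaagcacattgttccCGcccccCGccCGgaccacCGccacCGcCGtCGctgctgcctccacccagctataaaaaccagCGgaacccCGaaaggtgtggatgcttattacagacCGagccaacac
Foxd3: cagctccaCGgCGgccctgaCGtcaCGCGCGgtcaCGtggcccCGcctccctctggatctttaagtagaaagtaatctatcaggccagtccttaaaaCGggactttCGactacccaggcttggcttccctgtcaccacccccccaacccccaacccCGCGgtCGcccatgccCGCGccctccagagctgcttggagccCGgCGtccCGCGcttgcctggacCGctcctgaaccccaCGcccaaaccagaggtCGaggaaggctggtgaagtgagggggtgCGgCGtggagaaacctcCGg
Bsn at chr9:108190334-108190633 (minus strand), for the presynaptic scaffold Bassoon, and Hdgfl3 at chr7:81934410-81934709 (minus strand) lay in domains with strong untreated EZH2 but no EZH2 peak after nigericin.
Bsn: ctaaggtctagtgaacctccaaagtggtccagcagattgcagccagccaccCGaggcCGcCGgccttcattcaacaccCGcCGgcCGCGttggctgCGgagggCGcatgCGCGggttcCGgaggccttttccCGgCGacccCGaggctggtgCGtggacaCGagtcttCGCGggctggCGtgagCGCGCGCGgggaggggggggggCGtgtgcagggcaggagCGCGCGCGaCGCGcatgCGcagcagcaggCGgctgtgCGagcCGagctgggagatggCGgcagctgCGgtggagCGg
Hdgfl3: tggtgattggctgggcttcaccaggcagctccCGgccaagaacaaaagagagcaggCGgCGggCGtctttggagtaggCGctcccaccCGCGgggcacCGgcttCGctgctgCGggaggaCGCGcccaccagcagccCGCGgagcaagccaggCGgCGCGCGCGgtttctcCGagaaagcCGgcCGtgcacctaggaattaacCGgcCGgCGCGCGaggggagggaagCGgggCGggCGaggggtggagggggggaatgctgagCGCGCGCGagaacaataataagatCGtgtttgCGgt
Stmn3 at chr2:181314451-181314750 (minus strand), for a microtubule regulator of neurons, is shown as a promoter with few CG dinucleotides in a domain with EZH2 in both treatments.
Stmn3: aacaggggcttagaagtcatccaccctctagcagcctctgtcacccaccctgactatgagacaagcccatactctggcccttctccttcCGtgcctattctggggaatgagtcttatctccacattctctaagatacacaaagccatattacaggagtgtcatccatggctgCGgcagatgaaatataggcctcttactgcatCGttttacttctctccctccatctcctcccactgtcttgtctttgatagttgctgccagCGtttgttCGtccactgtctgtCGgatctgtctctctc
Pax8 at chr2:24475550-24475849 (minus strand), a paired-box factor of thyroid and kidney, and Cd3e at chr9:45009562-45009861 (minus strand), a chain of the T cell receptor complex, lay in broad H3K27me3 peaks without untreated EZH2.
Pax8: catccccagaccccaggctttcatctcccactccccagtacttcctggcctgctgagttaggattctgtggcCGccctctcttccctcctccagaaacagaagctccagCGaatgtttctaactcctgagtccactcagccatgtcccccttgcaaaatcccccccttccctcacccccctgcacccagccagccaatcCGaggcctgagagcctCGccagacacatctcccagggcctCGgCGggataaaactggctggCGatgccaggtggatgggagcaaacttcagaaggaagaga
Cd3e: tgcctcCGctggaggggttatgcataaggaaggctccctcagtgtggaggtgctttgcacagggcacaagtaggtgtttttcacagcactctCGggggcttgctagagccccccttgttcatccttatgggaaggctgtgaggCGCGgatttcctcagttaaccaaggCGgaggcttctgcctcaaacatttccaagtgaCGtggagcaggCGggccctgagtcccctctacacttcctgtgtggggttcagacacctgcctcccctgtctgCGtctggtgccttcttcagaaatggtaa
The 4 promoters of Olig2, Foxd3, Bsn and Hdgfl3 held 25, 25, 38 and 36 CG dinucleotides, against 6 in Stmn3, 7 in Pax8 and 8 in Cd3e.

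Across all promoters the domains with EZH2 were richer in CG. The median was 20 CG dinucleotides over their 829 promoters, 12 over 453 promoters in broad H3K27me3 without EZH2, 10 over 1706 promoters in narrower H3K27me3 peaks and 13 over 18057 promoters outside H3K27me3. Promoters with at least 15 CG made up 68.0% (95% Wilson interval 64.8 to 71.1) in the domains and 42.8% (38.3 to 47.4) in broad peaks without EZH2, beside 47.3% of all 21045 protein-coding promoters. With 1 start per gene the shares were 68.3% and 43.2%. Within the domains, promoters whose start lay inside an EZH2 peak had a median of 22 CG (424 promoters) and the others 17 (405 promoters). Domains with and without EZH2 after nigericin had similar promoters: 66.8% (62.9 to 70.6) and 70.6% (64.8 to 75.7) held at least 15 CG. The median GC content of the promoters was 64% in the domains and 59% in broad peaks without EZH2.

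**Figure D1:**
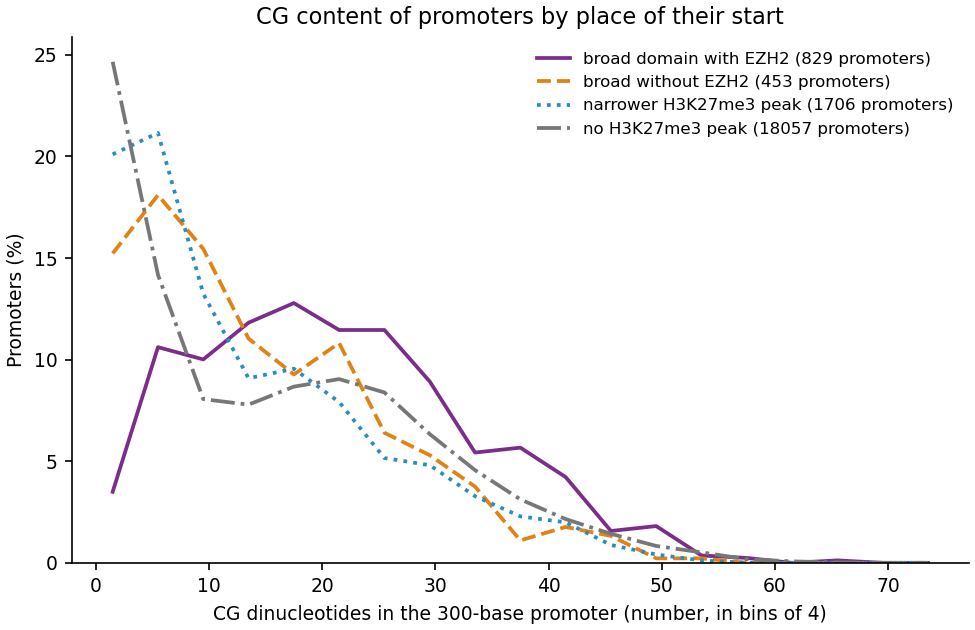
Share of promoters (vertical axis, %) by the number of CG dinucleotides in 300 bases (horizontal axis, bins of 4) for 4 places of the transcription start. The curve of the 829 promoters in broad domains with EZH2 (solid purple) lies to the right of the other 3, with a median of 20 CG against 10 to 13.

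The domains were long and strongly marked. Their length had a median of 9.24 kb (quartiles 6.80 and 13.7 kb, range 5.01 to 140.5 kb), against 6.95 kb (5.77 and 9.39, up to 78.6 kb) for broad peaks without EZH2. Together they covered 15.9 Mb, and the comparison peaks 21.9 Mb. The H3K27me3 fold over input at the summit, as the authors deposited it, had a median of 8.40 (2.81 to 23.3) against 6.19 (2.02 to 14.6). Fragments at the summit had medians of 37 and 26. These values used the measures that chose the domains and carry no test. A shorter peak has less room for an EZH2 peak, so comparisons below are also given with the comparison peaks weighted to the domains' length classes.

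Called EZH2 peaks covered only a small part of most domains, and EZH2 too weak to be called as a peak is not counted. Untreated EZH2 peaks took up a median of 16.2% of the length (0.249 to 81.1%), and the highest EZH2 fold of a domain had a median of 3.16 (1.62 to 9.37). The highest EZH2 summit lay a median of 1.03 kb from the H3K27me3 summit. A single EZH2 peak was present in 656 domains, 2 in 348, 3 in 160, 4 in 73 and 5 or more in 80. At least 1 EZH2 peak with q of 0.05 or less was present in 795 of the 1317 domains, so 522 rested on weaker peaks alone. The 2705 EZH2 peaks that touched the domains were 28.2% of the untreated list, and 43.8% of them had a q of 0.05 or less. Of the 1348 peaks in other H3K27me3 peaks 23.2% did, and of the 5528 peaks outside H3K27me3 4.21% did.

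**Figure D2:**
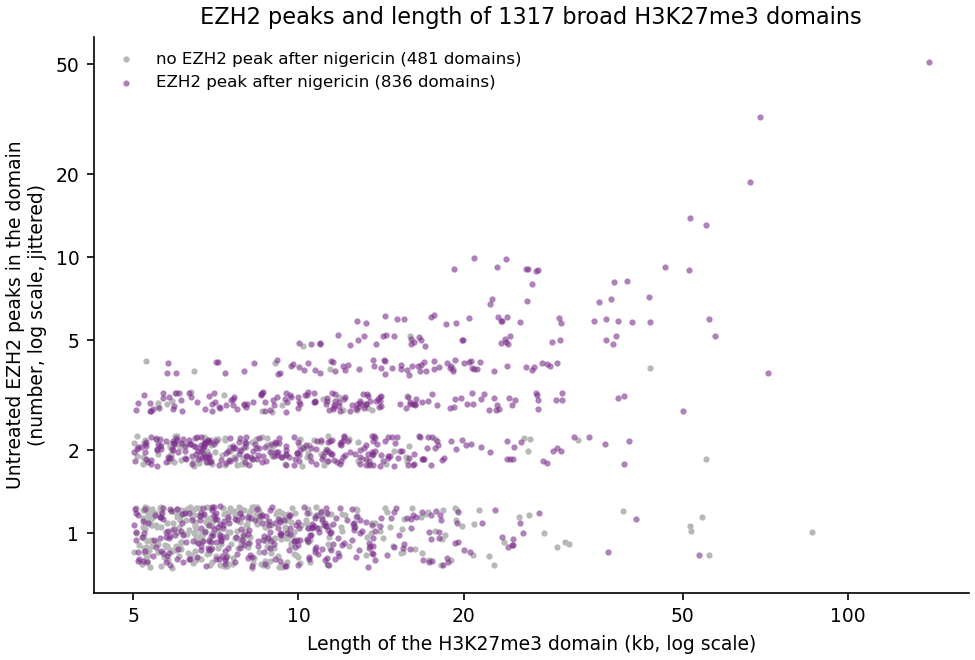
Each point is 1 of 1317 domains, with length in kb (horizontal, log scale) and number of untreated EZH2 peaks (vertical, log scale, points shifted slightly at random for visibility). Purple points, 836 domains with an EZH2 peak after nigericin, include 97.5% of the domains with 5 or more EZH2 peaks, and grey points are the 481 domains without.

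Among the 10 longest domains, 3 held genes of the Hoxc, Hoxd and Hoxa clusters, whose homeodomain factors set position along the body axis. A gene is counted in a domain here and below where a transcription start listed for it lay inside, or, where the RefSeq table lists no start for it, where either end of the gene did. The Hoxc cluster lay in the longest, chr15:102904914-103045369 (GRCm38/mm10), a single H3K27me3 peak of 140.5 kb with 9 Hox genes from Hoxc13 to Hoxc4 and the long non-coding RNA Hotair. Of the 9 only Hoxc4 had a listed start, and the others were placed by their gene ends. It held 51 untreated EZH2 peaks over 49.0% of its length, the highest at 8.55-fold with 56 fragments, and 42 nigericin EZH2 peaks, the highest at 5.25-fold with 19 fragments. A further domain of 55.9 kb followed it on chr15 with 6 untreated and 4 nigericin EZH2 peaks and no named gene start. The Hoxd domain from Evx2 to Hoxd8 (chr2:74638840-74705124, 66.3 kb) held 19 untreated and 21 nigericin peaks, with untreated EZH2 over 62.0% of it. The Hoxa domain with Hoxa3, Hoxa6, Hoxa7, Hoxa9, Hoxa10 and Hoxa11 (chr6:52205156-52260294, 55.1 kb) held 13 and 14 peaks, with EZH2 over 64.6%. The Hoxb genes were split among 6 domains of 6.00 to 51.4 kb, with 2 to 9 untreated EZH2 peaks each. EZH2 coverage was uneven within the clusters, with 67.3% of the Hoxb8 domain and 49.3% of the Hoxb9 domain but 9.80% of the Hoxb2 domain and 6.51% of the Hoxb1 domain. In all, 33 of 39 Hox genes lay in 11 of the domains, and each of the 11 held EZH2 after nigericin. A further 5.55 kb domain over Hoxd8, without its start, had 3 untreated EZH2 peaks and none after nigericin.

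Some of the longest domains held few EZH2 peaks. The second longest domain, over Cttn and Shank2 (chr7:144389488-144475336, 85.8 kb, genes for an actin-binding protein and a postsynaptic scaffold), had H3K27me3 at 14.5-fold but a single EZH2 peak of 2.41-fold on 8 fragments, over 0.368% of its length, and none after nigericin. The 55.9 kb Atoh8 domain likewise held a single EZH2 peak (2.21-fold, 15 fragments) and none after nigericin. The Gata4 domain (chr14:63226486-63278180, 51.7 kb), for a factor of heart and endoderm, stood at the other end. Its H3K27me3 reached 16.6-fold, its 14 untreated EZH2 peaks 6.17-fold (24 fragments) and its 8 nigericin peaks 7.48-fold (25 fragments), the highest nigericin fold of any domain.

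**Figure D3:**
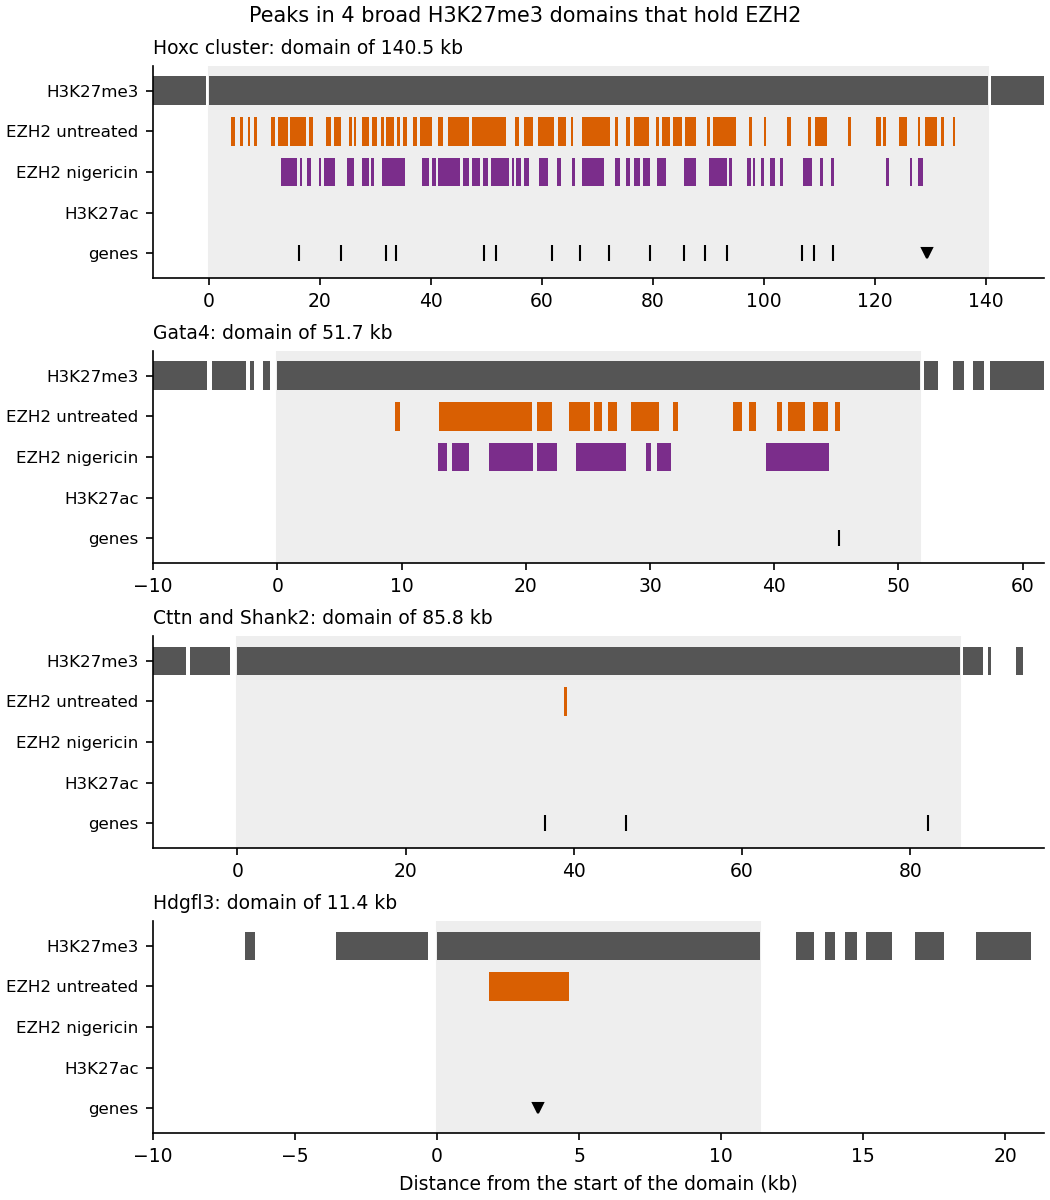
Peaks of 4 lists in the domains of the Hoxc cluster, Gata4, Cttn and Shank2, and Hdgfl3, against the distance from the start of the domain in kb (shaded: the domain). In the bottom row of each map triangles are protein-coding starts and ticks are the ends of genes with no start listed. EZH2 peaks spread along the Hoxc and Gata4 domains in both treatments, while Cttn and Shank2 and Hdgfl3 show a single untreated EZH2 peak each.

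The domains lay over genes far more often than broad H3K27me3 peaks without EZH2 did. A protein-coding gene started, or had an end where no start was listed, in 926 domains (70.3%, 67.8 to 72.7) and in 513 of the comparison peaks (20.02%, 18.5 to 21.6). The difference was 50.3 percentage points (Newcombe 95% interval 47.3 to 53.1), and 48.3 (45.2 to 51.4) when weighted to the domains' lengths. From the other side, 1018 of 21631 protein-coding genes, 4.71%, were in the domains by a start or an end, 716 of them by a listed start. By listed starts alone the domains with a gene were 674 (51.2%), against 377 comparison peaks (14.7%). Most domains with a gene held 1 (852 domains), 62 held 2 and the Hoxc domain held 9. Of 3 points of a domain the EZH2 summit was the nearest to gene starts: it lay within 1 kb of a protein-coding start in 35.3% (32.7 to 37.9) of 1287 domains, the H3K27me3 summit in 28.7% (26.3 to 31.3) and the middle of the domain in 19.97% (17.9 to 22.2). Median distances to a start were 2.75, 3.31 and 4.59 kb, beside 28.2 kb for the H3K27me3 summit of the comparison peaks. These distances leave out chromosome 18, with 30 domains, for lack of listed starts. The shares by listed starts alone keep those 30 domains in the total.

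Lists of genes for developmental transcription factors had 35.7% (POU) to 84.6% (Hox) of their members in the domains, where 4.71% of all protein-coding genes lay. Counts of genes in domains with EZH2 after nigericin are to be read beside the 63.5% of all domains, and 67.7% of domains holding a protein-coding gene, that had it. These counts are not matched for length, and 80.6% of domains of 12 kb or more had it. Domains of homeobox genes outside the Hox clusters had a median length of 15.6 kb, against 9.24 kb for all domains. Among homeobox genes outside the Hox clusters 71 of 90 lay in the domains, and 70 of the 71 were in domains with EZH2 after nigericin. Nkx6-2, a homeobox gene of the developing brain, was the exception, with 2 untreated EZH2 peaks of up to 3.05-fold and none after nigericin. High untreated EZH2 folds were those of Lbx1 (9.37-fold on 48 fragments, 35.2 kb domain, 3.63-fold after nigericin), a factor of muscle precursors and spinal cord, Otp (6.996 and 5.35), of the hypothalamus, Tlx2 (6.98 and 4.07), Vax2 (6.66 and 4.42) and the heart factor Nkx2-5 (6.36 and 3.998). Folds of the untreated and nigericin libraries are each against an input of their own and are not compared in size. Pax genes, paired-box factors, lay in the domains in 7 of 9 cases, all with EZH2 after nigericin. Pax2, for kidney and ear, had 7 untreated peaks of up to 5.79-fold and Pax6, for the eye, 4 of up to 4.69-fold. The Pax6 gene also showed the length limit at work, since a second H3K27me3 peak at its starts measured 4979 bp and was left out.

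GATA, forkhead, T-box and Sox genes followed. Of 6 GATA genes 4 lay in the domains: Gata6 (7.52-fold), Gata4 (6.17), Gata2 (3.44) and Gata5 (2.72), and only Gata5 lacked EZH2 after nigericin. Of 40 forkhead genes 17 did, 14 of them with EZH2 after nigericin, led by Foxi3 (8.20-fold), Foxa2 (7.94), a factor of endoderm, Foxd3 (7.83), Foxd1 (6.10), Foxb2 (5.58) and Foxl2 (5.49), of the ovary. Of 17 T-box genes 10 did, 8 with EZH2 after nigericin, with Tbx2 (5.19-fold), Tbx15 (4.93) and Tbr1 (4.41) highest. Tbx21, the T-bet factor of T helper cells, was at the low end, with a single untreated peak of 1.70-fold and none after nigericin. Of 19 Sox genes 9 did, 6 with EZH2 after nigericin, also near the share of all domains. Sox21 had 7.17-fold untreated, while Sox2, a factor of stem and neural progenitor cells, had 3.21-fold and none after nigericin.

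Basic helix-loop-helix, zinc-finger and POU genes were also present. Of 44 basic helix-loop-helix genes 20 lay in the domains and 13 of these were in domains with EZH2 after nigericin, a share near that of all domains. Olig2 (7.17-fold untreated on 41 fragments, 5.96-fold after nigericin on 30) and Sim2 (5.16 and 4.67) had both, whereas Twist1, a mesoderm factor, had 5 untreated peaks of up to 4.28-fold and none after nigericin. Of 35 zinc-finger genes 18 did, 17 with EZH2 after nigericin, led by Insm1 (6.15-fold), Sall1 (4.81) and Prdm12 (4.77). Gfi1, a transcriptional repressor that acts in blood cell development, was the 1 of these 18 with no nigericin peak. It had 3 untreated peaks of up to 3.002-fold. Of 14 POU genes 5 did and 2 of them had EZH2 after nigericin, among which Pou4f1, of sensory neurons, had 4.28-fold untreated and 5.38-fold after nigericin.

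Genes for signalling proteins were in the domains in shares from 16.1% (ligands and inhibitors of the BMP and TGF-beta family) to 52.6% (Wnt ligands). Among Wnt ligands 10 of 19 lay in the domains, with Wnt16 (4.47-fold), Wnt10b (4.09) and Wnt1 (3.88) highest, against 6 of 25 genes for Wnt receptors and secreted inhibitors, with Fzd2, a Frizzled receptor, at 5.41-fold and the inhibitors Frzb at 4.47-fold and Sfrp5 at 4.01-fold. Fibroblast growth factors gave 7 of 22, including Fgf16 (4.55-fold) and Fgf8 (4.37). Ligands and inhibitors of the BMP and TGF-beta family gave 5 of 31: Gdf7 (5.15-fold), the inhibitor Nog (4.85), Nodal (3.93), Gdf6 (3.78) and the inhibitor Chrd (2.90). Of 10 hedgehog pathway genes the ligands Ihh (3.40-fold) and Dhh (2.25) did. Axon guidance and Eph genes gave 9 of 41, with the guidance cue Ntn1 highest (7 untreated peaks of up to 6.02-fold). Ion channel and synaptic genes gave 19 of 60, with Bsn (6.07-fold) and the potassium channel Kcna2 (5.12-fold) highest, and 11 of the 19 were in domains with EZH2 after nigericin, again near the share of all domains.

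Marker and factor genes of the macrophage were not in these domains. None of 20 macrophage marker and factor genes, 22 inflammasome and cytokine genes or 32 genes for Polycomb proteins and H3K27 enzymes lay there. By the same starts or ends 1 gene of the Polycomb list, Cbx6, lay in a narrower H3K27me3 peak and the other 31 outside the mark. By any part of the gene, 1 gene of the inflammasome and cytokine list and 1 of the Polycomb list did overlap a domain. A domain with EZH2 over 80.6% of its length (chr11:119041544-119053589, 12.05 kb) ended 0.631 kb from Cbx8, a reader of H3K27me3, without holding a named gene start. It held 4 untreated peaks of up to 4.59-fold (45 fragments) and 4 nigericin peaks of up to 6.46-fold (28 fragments). Among markers of other cells that bone marrow cultures can hold, Pax5 of B cells, and Pdgfra and Cxcl12 of stroma, lay in the domains, and no neutrophil, T cell or erythroid marker did. In bulk chromatin a mark in some of the cells cannot be told apart from less mark in all of them. Over the 25 lists, 254 of 620 distinct genes lay in 234 of the domains.

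**Figure D4:**
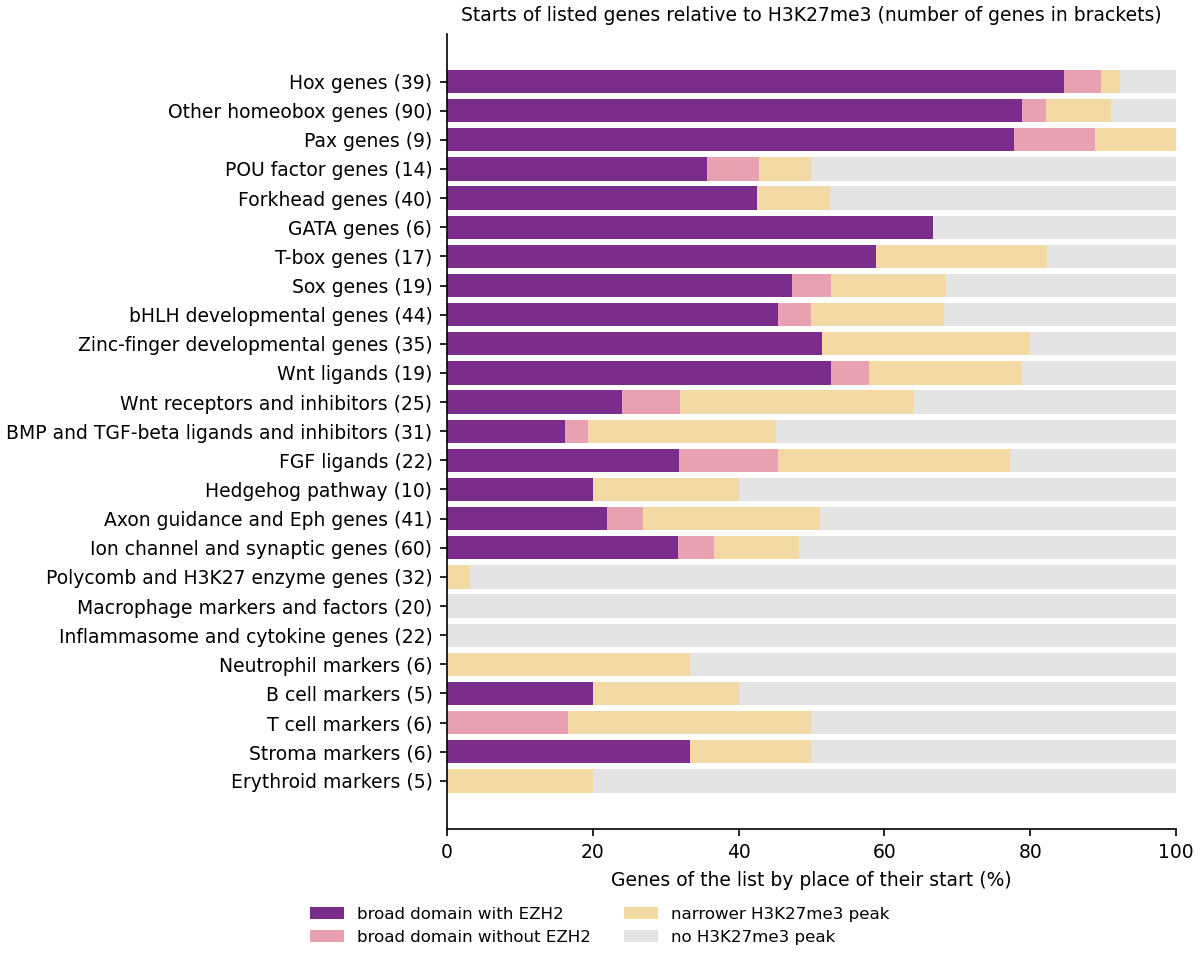
Genes of 25 lists (rows, number of genes in brackets) by where their start (or end, where no start is listed) lay, in % of the list. The share in broad domains with EZH2 (purple) goes from 0 in the macrophage, inflammasome and Polycomb lists to 33 of 39 Hox genes.

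MicroRNA genes of the same loci were in the domains as well. The RefSeq table lists 1005 microRNA hairpins, of which 25 (2.49%) lay in the domains and 17 (1.69%) in broad H3K27me3 without EZH2. The mature forms below are shown because copies of miR-196 and of miR-9 sit in separate domains. Capitals mark the seed, bases 2 to 8, which miR-196a and miR-196b share. The miR-196 genes lie within the Hox clusters: Mir196a-1 in a 24.5 kb domain next to Hoxb9, Mir196a-2 in the Hoxc domain and Mir196b in the Hoxa domain.
miR-196a-5p: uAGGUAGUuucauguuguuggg
miR-196b-5p: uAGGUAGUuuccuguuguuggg
miR-10b-5p: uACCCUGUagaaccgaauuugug
miR-9-5p: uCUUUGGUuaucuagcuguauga
The sequence miR-196a-5p lies at chr11:96265187-96265208 and chr15:102973365-102973386 (plus strand), and miR-196b-5p at chr6:52230129-52230150 (minus strand). Mir10b lay in the 17.9 kb domain of Hoxd3 and Hoxd4 (chr2:74726074-74726096, plus strand). All 3 genes for miR-9, a microRNA of neurons, lay in the domains: Mir9-1 (chr3:88215613-88215635, 39.6 kb domain, 8 untreated EZH2 peaks of up to 4.77-fold), Mir9-3 (chr7:79505279-79505301, 43.4 kb, 7 peaks of up to 3.58-fold) and Mir9-2 (chr13:83738821-83738843, 8.26 kb, 3 peaks of up to 2.94-fold), each on the plus strand. All 7 of these hairpins were in domains with EZH2 after nigericin, beside 63.5% of all domains and 80.6% of those of 12 kb or more. Of the hairpins not shown, Mir6973b, Mir6944 and Mir193b lay in domains without EZH2 after nigericin. Next to Mir9-2 a 19.2 kb domain with no named gene start (chr13:83715272-83734497) held 9 untreated and 9 nigericin EZH2 peaks, of up to 4.70-fold and 6.28-fold.

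EZH2 after LPS and nigericin was examined as a measure that had no part in choosing the domains. An EZH2 peak of that library was present in 836 of 1317 domains (63.5%, 60.8 to 66.0) and in 168 of 2563 broad H3K27me3 peaks without untreated EZH2 (6.55%, 5.66 to 7.58), beside 25.9% of all 3880. The difference was 56.9 points (54.1 to 59.6) and 55.0 (52.1 to 57.8) at matched length. It held in each length class, with 48.2% against 2.76% at 5 to 6 kb, 50.2% against 6.14% at 6 to 8 kb, 63.4% against 8.61% at 8 to 12 kb and 80.6% against 12.7% at 12 kb or more. With nigericin peaks of q of 0.05 or less alone, the shares were 26.7% and 0.429%, a difference of 26.2 points. The domains held 1860 of 5054 nigericin EZH2 peaks (36.8%). In 708 of the 836 domains (84.7%, 82.1 to 87.0) a nigericin peak overlapped an untreated EZH2 peak directly. The nigericin list is shorter than the untreated list, so an untreated peak with no partner can mean less EZH2 or a shallower library, which cannot be told apart here. Peak by peak, 44.9% (43.1 to 46.8) of untreated EZH2 peaks in the domains met a nigericin peak, against 18.2% (16.2 to 20.3) in other H3K27me3 peaks and 2.33% (1.97 to 2.77) outside H3K27me3.

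**Figure D5:**
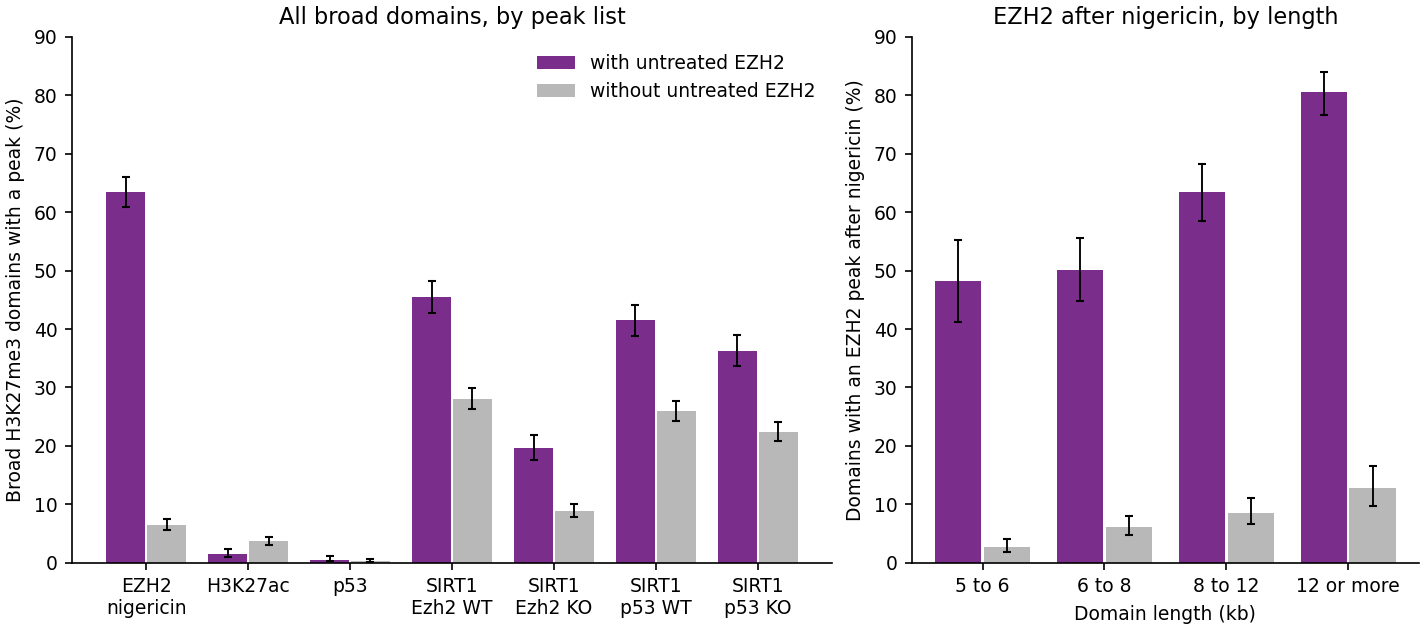
Left, share of broad H3K27me3 domains (%) with a peak of each of 7 lists, for the 1317 domains with untreated EZH2 (purple) and the 2563 without (grey). Right, the share with an EZH2 peak after nigericin by domain length, where the purple bars go from 48.2% to 80.6% and the grey from 2.76% to 12.7%. Error bars are 95% Wilson intervals.

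Domains with more EZH2 in untreated cells more often held an EZH2 peak in nigericin-treated cells. In 4 equal groups by untreated EZH2 fold the share with a nigericin peak was 40.1% (34.97 to 45.5) in the lowest, then 58.4%, 66.3% and 89.1% (85.3 to 92.0) in the highest. By number of untreated EZH2 peaks it went from 45.6% (41.8 to 49.4) with 1 peak to 97.5% (91.3 to 99.3) with 5 or more, whose median lengths were 8.12 and 23.4 kb. Domains holding a protein-coding gene had a nigericin peak in 67.7% (64.6 to 70.6) of cases and those without in 53.5% (48.5 to 58.3). Median lengths were 7.83, 8.86, 9.56 and 11.6 kb in the 4 groups by fold. With and without a gene they were 9.77 and 8.26 kb. The part of length in these 3 splits was not tested. After Gata4, the highest nigericin folds included a 22.9 kb domain without a named start over the synaptic gene Nrxn2 (7.40-fold on 33 fragments, beside 5.23-fold untreated), a 9.27 kb domain 2.54 kb from Neurod2 (6.99 and 6.00), the Bsx domain (6.16 and 3.94), the Cux2 domain (6.11 and 5.35), the Olig2 domain and the Stmn3 domain. Stmn3, with a single untreated peak of 2.76-fold on 19 fragments, had 4 nigericin peaks of up to 5.92-fold on 22 fragments.

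A set of domains with strong untreated EZH2 had no EZH2 peak after nigericin. The highest was Hdgfl3 (6.59-fold on 30 fragments), followed by H1f10 (6.26 on 32), for a linker histone, Bsn (6.07 on 22), Ttc9 (5.94 on 25), a 5.55 kb domain over Hoxd8 (5.62 on 20), Ppp1r16b (5.54 on 20), a domain over Ahdc1 (5.40 on 35), Col27a1 (5.35 on 23) and the shared start of Col4a1 and Col4a2 (5.35 on 19), for basement membrane collagen. All of these untreated peaks had a q of 0.05 or less. In the opposite direction, Pax8 lay in a broad H3K27me3 peak without untreated EZH2 that held 3 nigericin peaks of up to 4.69-fold, the highest nigericin fold among the 168 such peaks.

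H3K27ac was rare in the domains. It overlapped 21 of 1317 (1.59%, 1.05 to 2.43) and 94 of 2563 comparison peaks (3.67%, 3.01 to 4.47), beside 2.96% of all broad peaks. The difference was -2.07 points (-3.04 to -1.01) and -1.93 (-2.99 to -0.860) at matched length. Summits of H3K27ac numbered 2.08 per Mb in the domains and 7.87 per Mb in the comparison peaks. Of the 36 H3K27ac peaks in the 21 domains, 10 lay in the outer 10% of the length at either end. Even placement would also put some there, and no preference for the edges is read from this count. With an overlap counted as 0, the nearest H3K27ac peak was a median of 55.7 kb from the domains and 64.4 kb from the comparison peaks, and it was within 20 kb for 22.2% and 22.3%. The domains with the highest H3K27ac were those of the secreted protease gene Htra1 (5.80-fold on 31 fragments), a domain over Clcf1 without its start (5.76 on 30), Tmem178 (5.59 on 52), Odf3l2 and Shc2 (5.19 on 21), domains over the kinase gene Src (5.18 on 22) and over Zfp469 (5.16 on 18) without their starts, and the intermediate filament gene Nes (4.61 on 23). The Gata2 domain of 20.7 kb, for a factor of blood stem cells, held a single H3K27ac peak of 4.21-fold on 17 fragments beside 3 untreated and 3 nigericin EZH2 peaks. Among the 10 domains with the highest H3K27ac, those of Gata2 and of Odf3l2 and Shc2 held EZH2 after nigericin and the other 8 did not. Of all domains 63.5% held it, and of those of 5 to 6 kb 48.2%. Apart from the Gata2 domain the 10 were 5.01 to 11.1 kb long. The part of length in this was not tested. Whether both marks lie in the same cells was not tested.

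Peaks of p53 were nearly absent from the domains and from the comparison peaks. Its peaks overlapped 7 of 1317 domains (0.532%, 0.258 to 1.09) and 10 of 2563 comparison peaks (0.390%, 0.212 to 0.717), beside 0.438% of all broad peaks, a difference of 0.141 points (-0.285 to 0.730). The 7 domains were those of Ppl, Cpne7, Tmprss2 and Nrxn2 and unnamed domains over Srrm3 and Samd4 and 0.186 kb from Hey2. The highest p53 fold was 3.87 on 11 fragments at Ppl, for the junction protein periplakin, and none of the 7 peaks had a q of 0.05 or less. Of all 4878 p53 peaks only 58 had such a q.

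SIRT1 peaks were more frequent in the domains than in the comparison peaks, and the differences were smaller at matched length and without chromosome X. In Ezh2 wild type cells 599 domains (45.5%, 42.8 to 48.2) and 720 comparison peaks (28.1%, 26.4 to 29.9) held a SIRT1 peak, beside 34% of all broad peaks. In Ezh2 knock out cells 258 (19.6%, 17.5 to 21.8) and 227 (8.86%, 7.82 to 10.02) did, beside 12.5%. In p53 wild type cells 546 (41.5%) and 664 (25.9%) did, beside 31.2%, and in p53 knock out cells 478 (36.3%) and 574 (22.4%), beside 27.1%. The differences were 17.4 points (14.2 to 20.6), 10.7 (8.37 to 13.2), 15.6 (12.4 to 18.7) and 13.9 (10.9 to 17.0). On chromosomes 1 to 19 and at matched length, an alternative chosen after the data were seen, they were 4.12 (0.545 to 7.69), 5.33 (2.47 to 8.20), 4.02 (0.445 to 7.60) and 0.963 (-2.56 to 4.49).

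The SIRT1 peaks in the domains were weak, as were those of the SIRT1 lists as a whole. In Ezh2 wild type cells 247 of 74346 peaks had a q of 0.05 or less, and in Ezh2 knock out cells 507 of 18087. In p53 wild type cells 180 of 56129 did, and in p53 knock out cells 321 of 59703. With SIRT1 peaks of q of 0.05 or less alone, the differences were 0.0717 points (-0.215 to 0.522) in Ezh2 wild type cells and 0.187 (-0.106 to 0.668) in p53 wild type cells, intervals that include 0, and 0.638 (0.153 to 1.33) in Ezh2 knock out cells and 0.417 (0.110 to 0.952) in p53 knock out cells. The domain's highest SIRT1 peak had a q of 0.05 or less in 3 of the 599 domains in Ezh2 wild type cells, 12 of 258 in Ezh2 knock out cells, 4 of 546 in p53 wild type cells and 6 of 478 in p53 knock out cells. All 4 SIRT1 lists had a peak in 51 domains and none in 298. As a share of each list, summits inside the domains were 1.25% (1.17 to 1.33) of 74346 peaks in Ezh2 wild type cells and 1.79% (1.60 to 1.99) of 18087 in Ezh2 knock out cells, beside 1.27% and 1.39% in the comparison peaks. They were 1.43% (1.33 to 1.53) of 56129 in p53 wild type cells and 1.13% (1.05 to 1.22) of 59703 in p53 knock out cells, beside 1.49% and 1.18% in the comparison peaks. The comparison peaks cover 21.9 Mb and the domains 15.9 Mb. Per Mb, summits in Ezh2 wild type and knock out cells numbered 58.6 and 20.4 in the domains, against 43.2 and 11.5. In p53 wild type and knock out cells they numbered 50.4 and 42.4, against 38.4 and 32.3. Chromosome X is included in these values. The 2 Ezh2 lists differ in length, so no change in SIRT1 between the genotypes is read from the number of domains with a peak. Domains with EZH2 after nigericin had a SIRT1 peak in 49.3% (45.9 to 52.7) of cases in Ezh2 wild type cells and 23.2% (20.5 to 26.2) in Ezh2 knock out cells, and those without in 38.9% (34.6 to 43.3) and 13.3% (10.6 to 16.6). Their median lengths were 10.7 and 7.73 kb, and the part of length in this was not tested.

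Chromosome X stood apart. Of 616 broad H3K27me3 peaks on X only 11 (1.79%) were among the domains, against 1306 of 3264 (40.0%) on chromosomes 1 to 19. X carried 26.7% of all H3K27me3 peaks but 1.29% of untreated EZH2 peaks and 0.712% of nigericin EZH2 peaks. These counts are part of what chose the domains and are given as a description. Of the 11 X domains 1 held EZH2 after nigericin (9.09%, 1.62 to 37.7), against 63.9% (61.3 to 66.5) on the other chromosomes. The X domains without it included those of Fgf16 (4.55-fold on 16 fragments), Cited1 (3.83 on 17) and Pcdh19 (2.47 on 9). The sex of the mice is not given in the sources used here, and the H3K27me3 and EZH2 libraries may come from different animals. Without X the difference in nigericin EZH2 was 55.6 points (52.6 to 58.4).

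The length limit cut through a continuous range. Just inside it lay the domains of Phf21b and an unnamed domain over Iglon5 (5014 bp each), Epcam (5020 bp, 2 untreated EZH2 peaks of up to 3.49-fold), Rtn4rl1 (5058 bp, 4.07-fold), Car14 (5059 bp, 3.93-fold) and Hes3 (5060 bp, 2.56-fold). Just outside it lay Pla2g4e (4992 bp, 2.22-fold), Pax6 (4979 bp, 3.07-fold), Ripply2 (4979 bp, 4.44-fold) and Jakmip3 (4978 bp, 2.85-fold). Long blocks were also cut into pieces: the 1317 domains formed 1159 loci when those within 10 kb of each other were joined, and 129 of these loci held 287 domains.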

How the data were processed

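The data were 9 peak lists of chromatin immunoprecipitation libraries, 1 library a group. Peak calling with MACS2 and the build GRCm38/mm10 come from the submitters' processing notes, which also name deepTools. The sources used here give no aligner, tool version or filter. As the authors deposited them, each peak has a score, a fold over input at its summit (a ratio), a −log10 p-value and a −log10 q-value, and the summit's offset. The lists give no read totals, so the depth is unknown, and no molecular identifiers are recorded, so fragments may not be independent molecules.

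Peaks on chromosomes 1 to 19 and X were used, and an overlap was 1 bp or more. Fragments at a summit were recovered from the deposited fold and p-value. Gene starts came from the RefSeq promoter table, which listed a start for 17274 of 21631 protein-coding genes. Chromosome 18 was left out of distances to a start for lack of listed starts. For other genes either end of the gene counted. Gene and promoter tables are of GRCm38. Shares have 95% Wilson intervals and differences Newcombe intervals. Length matching used 4 classes (5 to 6, 6 to 8, 8 to 12, 12 kb or more). No test across replicates was possible. The overlap and interval code was tested on simulated data. Python 3.11.15, pandas 2.3.3, numpy 2.4.6, scipy 1.17.1 and matplotlib 3.10.9 were used.

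The domains and the gene lists were chosen with earlier results of these data known. Named domains were the 10 longest, the 10 highest by H3K27me3 fold, number of untreated EZH2 peaks, nigericin EZH2 fold and H3K27ac fold, those with p53, the 10 highest by untreated EZH2 fold without nigericin EZH2, the 10 nearest the length limit on either side, and up to 6 genes of each list by untreated EZH2 fold. Genes named beyond these were chosen after their values were seen. A few genes that the rule names are not reported here. Alternatives for the length limit, the q-value, the joining of peaks and the overlap are in the closing section.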

Additional observations from a re-analysis of the deposited data

How the results depend on the processing

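No result changed direction under the alternatives run: over the differences between domains with and without EZH2 and the counts, 44 values stayed within the main interval or within 1.5 times the main count and 33 moved. At a length limit of 8000 bp the set held 799 domains, and with untreated EZH2 peaks of q of 0.05 or less it held 795. The difference in nigericin EZH2 (56.9 points) was 62.4 at 8000 bp, 65.5 with the stricter untreated EZH2, 52.5 with H3K27me3 peaks joined across 1000 bp, and 26.2 with nigericin peaks of q of 0.05 or less. SIRT1 differences in Ezh2 wild type, Ezh2 knock out, p53 wild type and p53 knock out cells were 25.4, 13.4, 23.6 and 21.0 with joined peaks, 11.8, 8.31, 11.3 and 7.87 at matched length, and 0.0717, 0.638, 0.187 and 0.417 with SIRT1 peaks of q of 0.05 or less, where the intervals in both wild types include 0. In p53 knock out cells it was 10.4 at 8000 bp. The gene share difference (50.3 points) was 55.2 with joined peaks. Alternatives added after the data were seen gave a gene share difference of 36.5 with listed starts only. On chromosomes 1 to 19 alone the gene share difference was 47.2, that of H3K27ac -3.14, and those of SIRT1 10.3, 8.16, 8.56 and 7.77 in the same order. On those chromosomes and at matched length, nigericin EZH2 was 53.5, the gene share 45.6, and SIRT1 4.12, 5.33, 4.02 and 0.963. Apart from these added settings and those that shorten a list by construction, the cause was not tested. By any part of the gene instead of its start, 278 listed genes lay in the domains instead of 254. No paired analysis was possible because each group has 1 library. Without read totals or replicates, the weak peaks behind 522 domains limit what can be said of each.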

Other observations

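Some of the strongest domains lay over genes with near-identical copies, where the authors' read placement could share reads among copies. The domain with the highest H3K27me3, 23.3-fold on 214 fragments, covered the 5S ribosomal RNA array (Rn5s, chr8:123535006-123604288, 69.3 kb). It held 32 untreated EZH2 peaks of up to 4.61-fold on 58 fragments and 8 nigericin peaks of up to 2.55-fold on 50 fragments. It also held 15, 11, 12 and 19 SIRT1 peaks in Ezh2 wild type, Ezh2 knock out, p53 wild type and p53 knock out cells, against 9, 2, 7 and 4 in the Hoxc domain, which is longer. The domain next to it (chr8:123604670-123628538, 23.9 kb) held 10 untreated EZH2 peaks of up to 3.19-fold on 42 fragments and 6 nigericin peaks of up to 3.13-fold on 46.

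Nonclassical MHC class I genes lay in 3 long domains. That of H2-Q1, H2-Q2 and H2-Q3 (57.4 kb, H3K27me3 16.1-fold) held 5 untreated EZH2 peaks of up to 3.55-fold and 8 nigericin peaks. That of H2-Q10 (29.5 kb, H3K27me3 17.0-fold) held 2 of up to 3.48-fold and 3 after nigericin of up to 3.84-fold. A 46.5 kb domain over H2-T3 held 9 untreated peaks of up to 3.80-fold and 5 after nigericin. The share of reads from other copies of these genes was not tested.

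A 20.9 kb domain over Gata3 (chr2:9879809-9900717) held 10 untreated EZH2 peaks of up to 4.13-fold and 6 nigericin peaks of up to 5.28-fold without holding a start listed for Gata3, a factor of T cells. The 25.6 kb domain of Srcin1, with H3K27me3 at 16.6-fold, held a single untreated EZH2 peak of 2.90-fold, whereas the 20.9 kb domain beside it, over the same gene, held 4 of up to 5.31-fold and 6 after nigericin.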
